A study of Mus musculus with 20 samples.

Results

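Strong Polycomb regions were taken as the H3K27me3 regions of wild-type (WT) cells on chromosomes 1 to 19 and X that had a signal of at least 20 and overlapped an H3K27me3 region of Pml knock-out (KO) cells by at least 1 bp. The signal is the value per region that the authors deposited, and its scale is not stated in the sources used here. Of 17661 WT H3K27me3 regions, 2856 met both conditions. The regions were chosen by WT H3K27me3 signal and by overlap with a KO H3K27me3 call, so their H3K27me3 values are a description. The chosen regions spanned 302.3 Mb, with a median length of 58.5 kb and a range of 1 to 5628 kb. Their WT signal ran up to 215 with a median of 31.3. KO H3K27me3 regions covered 89.5% of their length. The other WT regions comprised 9475 weaker regions also called in KO, 273 strong regions called in WT alone and 5057 weaker regions called in WT alone.

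The cells were mouse embryonic fibroblasts (MEF), primary connective tissue cells grown from embryos, isolated from Pml-null mice and from WT mice of the C57BL/6 background and used at passage 10 to 15 while proliferating and otherwise untreated. PML builds nuclear bodies that hold DAXX, a chaperone of the histone variant H3.3. Chromatin immunoprecipitation (ChIP) gave 1 library per target and genotype for H3K27me3, H3K9me3, H3.3 with a Flag tag, H3.3 with an HA tag, PML and H3, and the H3.3 cells were transfected with the tagged histone by nucleofection. RNA came from untransfected cells as 2 pairs of tables in fragments per kilobase, scaled to the mapped fragments (FPKM), a pair in which the authors pooled 3 numbered samples per genotype and a pair from 1 unnumbered sample per genotype. No value therefore has a replicate, no test between genotypes was possible, and every difference below is one between single libraries or pooled tables. The number of animals or cell lines behind them is not given in the sources used here.

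Polycomb repressive complex 2, with the methyltransferase Ezh2 and its partners Eed and Suz12, places H3K27me3, and the mark keeps genes of other lineages and of other developmental stages silent in a differentiated cell. Hox clusters and genes of lineage transcription factors are its best known targets. H3K9me3 marks a separate kind of silent chromatin, typical of repeats and of gene-poor heterochromatin. H3.3 is laid down outside replication, at transcribed genes by HIRA and at heterochromatin by ATRX and DAXX.

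The promoters of 6 genes named under several headings of the gene rule show the range of sequence that lay under these regions. Zic1 encodes a zinc finger factor of limb and neural development, Clec11a a secreted growth factor of bone marrow stroma, and Pdgfra the receptor for platelet-derived growth factor on mesenchymal cells. C1qb and C1qc encode chains of the complement component C1q and Lyz2 encodes lysozyme, all markers of macrophages. Each sequence is the 250 bases before the gene's first listed start in a strong region, 5′ to 3′, with CG dinucleotides in capitals. It was taken from RefSeq's promoter table (build GRCm38.p6, which is mm10). For Pdgfra that start is not the outermost one, and the window lies inside the annotated gene. The C1qc window overlaps the end of its annotated gene in the same way.
Zic1, chr9:91365769-91366018, minus strand: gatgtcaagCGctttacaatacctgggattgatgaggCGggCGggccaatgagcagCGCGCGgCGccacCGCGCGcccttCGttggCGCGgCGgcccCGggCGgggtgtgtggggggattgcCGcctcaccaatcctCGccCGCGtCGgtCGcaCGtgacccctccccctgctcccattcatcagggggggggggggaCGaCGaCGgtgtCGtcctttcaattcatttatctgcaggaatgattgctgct
Clec11a, chr7:44306960-44307209, minus strand: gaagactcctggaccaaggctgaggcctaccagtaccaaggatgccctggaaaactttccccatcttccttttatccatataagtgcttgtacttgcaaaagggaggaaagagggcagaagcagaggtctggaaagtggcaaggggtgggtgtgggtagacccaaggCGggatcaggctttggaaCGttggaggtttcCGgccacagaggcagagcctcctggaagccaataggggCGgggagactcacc
Pdgfra, chr5:75152001-75152250, plus strand: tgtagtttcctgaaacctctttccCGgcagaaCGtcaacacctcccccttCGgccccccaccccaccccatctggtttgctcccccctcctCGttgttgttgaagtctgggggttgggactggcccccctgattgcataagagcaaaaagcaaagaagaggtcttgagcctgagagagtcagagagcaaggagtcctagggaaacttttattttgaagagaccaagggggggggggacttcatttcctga
C1qb, chr4:136886201-136886450, minus strand: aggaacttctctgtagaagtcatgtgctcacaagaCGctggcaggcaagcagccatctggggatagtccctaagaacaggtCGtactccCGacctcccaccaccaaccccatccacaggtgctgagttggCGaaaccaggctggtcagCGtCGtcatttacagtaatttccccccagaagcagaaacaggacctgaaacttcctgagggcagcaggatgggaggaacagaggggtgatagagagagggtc
C1qc, chr4:136892915-136893164, minus strand: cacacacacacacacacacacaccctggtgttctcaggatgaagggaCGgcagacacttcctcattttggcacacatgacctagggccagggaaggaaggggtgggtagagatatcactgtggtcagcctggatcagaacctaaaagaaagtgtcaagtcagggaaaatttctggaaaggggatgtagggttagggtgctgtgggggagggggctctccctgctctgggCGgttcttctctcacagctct
Lyz2, chr10:117282273-117282522, minus strand: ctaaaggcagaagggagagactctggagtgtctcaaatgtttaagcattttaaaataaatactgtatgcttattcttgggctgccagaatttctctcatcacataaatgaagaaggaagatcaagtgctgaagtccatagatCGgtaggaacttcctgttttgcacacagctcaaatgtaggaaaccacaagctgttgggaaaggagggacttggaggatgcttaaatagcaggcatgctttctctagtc
These windows held 27 CG dinucleotides in Zic1, 4 in Clec11a, 4 in Pdgfra, 6 in C1qb, 2 in C1qc and 1 in Lyz2. The Zic1 window was 66.0% G and C, and the Lyz2 window 41.6%. CG count was not shared by all genes in the strong regions. Of the 148 listed transcription factors with a start in a strong region and a sequence in the table, 71.6% had at least 10 CG in the window (median 14.5). Among the other 2874 genes with a start in a strong region the share was 38.4% (median 6), and among 14246 genes with a start elsewhere 53.3% (median 11). A match to TATAAA on either strand was found in 12.7% of the 3022 windows of genes in strong regions and in 12.5% of all 17268 windows of the same length. The motif was thus as frequent in these windows as in all of them, and no match says only that these letters are not in the window.

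Strong regions held the starts of most developmental transcription factors. A start was placed by the RefSeq promoter table, and a gene with no entry counted as inside when both of its annotated ends lay in strong regions. Of 21631 protein-coding genes, 3677 had their start in a strong region (17.0%), and for 313 it could not be told. Of 302 annotated factors in 7 lists, 211 did (69.9%), spread over 170 regions. Zinc finger developmental factors such as Zic1 and Fezf2 had 23 of 28 inside, Hox genes 31 of 39, and other homeobox factors 90 of 124. GATA and forkhead factors had 20 of 32 inside, T-box factors 10 of 16, basic helix-loop-helix lineage factors such as Neurog2 26 of 44, and Sox factors 11 of 19. Secreted developmental signals, the Wnt, Hedgehog, Fgf and Tgf-beta ligands among them, had 30 of 62 inside, and transcription factors of mesenchyme and limb had 17 of 36.

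Marker lists of other cell types ranged widely in the share inside. Skeletal muscle markers had 7 of 11 inside, among them Myod1, the factor that drives muscle commitment. Keratinocyte and epithelial markers had 4 of 10 inside (Krt5, Krt8, Krt14 and Epcam), macrophage markers 5 of 13 and neuronal markers 3 of 10. Endothelial markers had 1 of 10 inside, with 3 that could not be told. Fibroblast markers had 1 of 15 inside, which was Pdgfra, and housekeeping genes 0 of 20. Of 30 genes for Polycomb proteins and H3K27 demethylases, 3 had a start inside, Bmi1, Phc2 and Pcgf5, all of them subunits of Polycomb complexes. Of 7 cell cycle inhibitors, Cdkn1c alone did, an imprinted gene, while Cdkn2a and Cdkn2b, known Polycomb targets in young fibroblasts, lay outside. Gene starts were 12.2 per Mb in the strong regions, 15.5 per Mb in strong regions called in WT alone, and 5.44 per Mb in weaker regions also called in KO. Gene starts were found in 1801 strong regions, and 1055 held none.

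The regions of highest signal were a mixture of gene-free and developmental loci. Signal is not the same quantity on all chromosomes, as described under processing. Ranks by signal, and places near the minimum of 20, are thus not strictly comparable between chromosomes. The highest, chr8:123537001-123628000 at a signal of 215, held no protein-coding start and was covered whole by H3 regions in both genotypes. H3.3-Flag regions covered 5.49% of it in KO and 100% in WT. Others among the 10 highest held Gm36079, Fcgr3, Pcdh17 (a cell adhesion protein), Gsc2, Tlx2 and Prdm12. Gsc2 and Tlx2 encode homeobox factors, and Prdm12 a zinc finger factor of sensory neurons. The Hoxc cluster was the tenth at 109. The 5 longest regions all lay on X, where 14 strong regions spanned 16.9 Mb, and the longest, chrX:69792001-75420000, held 98 gene starts. At the minimum, the regions just inside were chr1:61001001-61006000, chr1:138610001-138612000 and chr12:31123001-31126000, all at a signal of 20, and those just outside were chr19:42615001-42741000, chr4:100638001-100775000 and chr15:55243001-55315000, at 19.998, 19.993 and 19.988. Those inside were 2 to 5 kb long and those outside 72 to 137 kb, while over all regions the strong shared set was the longer, with a median of 58.5 kb against 19 kb for the weaker shared set.

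H3K9me3 covered more of the strong regions in KO than in WT. KO H3K9me3 regions covered 60.6% of their length and WT regions 33.6%. A region was counted as gained or lost when the covered share of its length differed by at least 0.5 between genotypes. Gains numbered 637 (22.3%, 95% Wilson interval 20.8% to 23.9%), against 9.25% over all 17661 regions, and losses numbered 125 (4.38%, 3.69% to 5.19%), against 17.5% over all. The interval treats regions as independent and covers counting error only. Any increase was seen in 1370 regions, any decrease in 666 and no difference in 820. In 392 regions H3K9me3 was called in KO alone, in 351 in WT alone, and in 683 in neither. Of all 17661 regions, 3529 had an increase, 6246 a decrease and 7886 no difference. Over the same 17661, H3K9me3 was called in KO alone in 1236, in WT alone in 4138 and in neither in 4968.

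With calls of any signal counted, the direction was the opposite of that in the weaker regions. Over the 9475 weaker regions also called in KO, H3K9me3 covered 48.9% of the length in KO and 52.3% in WT, with 675 gains (7.12%) and 2115 losses (22.3%). Over the 273 strong regions called in WT alone the cover was 15.9% in KO and 19.5% in WT. Genome-wide, the KO library had less H3K9me3 called than the WT library, with 735 Mb in KO and 871 Mb in WT. With calls under a signal of 1 left out the order turned, with 735 Mb in KO and 630 Mb in WT, and at a minimum signal of 3 it was 733 Mb in KO and 306 Mb in WT. Cover of the weaker regions was not computed at these minimums, so whether their direction holds there is not known. These comparisons set region sets of the same libraries side by side, and no test of their difference was available.

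**Figure D1:**
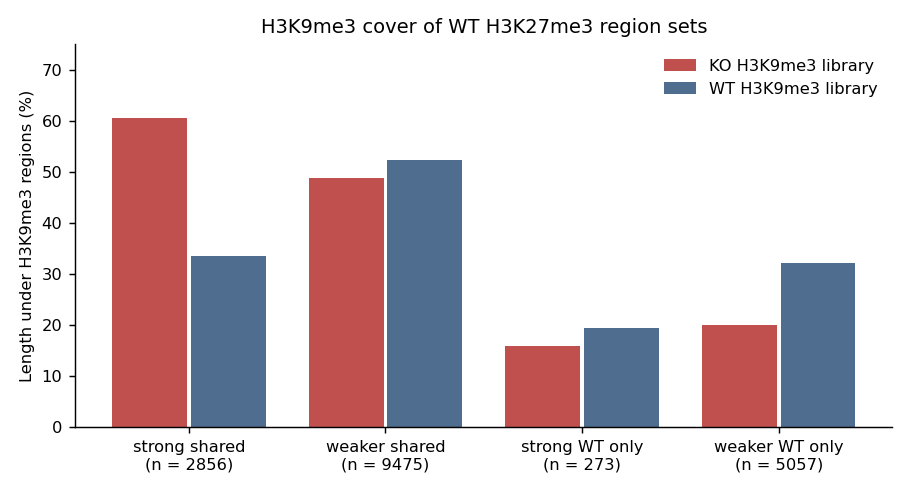
Percent of the length of 4 sets of WT H3K27me3 regions under H3K9me3 regions, in KO (red, left bar) and WT (blue, right bar), 1 library each, without error bars since no replicate exists. The strong shared set has 60.6% in KO and 33.6% in WT, and in each of the other 3 sets the KO bar is the lower one.

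The difference was larger in long regions. In the 729 shortest strong regions, up to 22 kb, H3K9me3 covered 25.5% of the length in KO and 21.7% in WT, with 88 gains and 84 losses. In the 711 longest, of 138 kb and over, it covered 68.2% in KO and 36.8% in WT, with 236 gains and 5 losses. Many regions tied for the largest gain or loss, and the rule for named regions took the 5 of highest WT H3K27me3 signal each way. The 5 losses so named were all 1 kb long and held no gene start. The 5 gains comprised a 1 kb region on chromosome 17, and the regions of Epha5, Hrk and Gbx1 on chromosome 5 and Rnf220 on chromosome 4. Each was covered whole in KO and not at all in WT, as were others, among them the regions of Wnt3, Wnt7a and Nodal. Epha5 encodes an ephrin receptor, Hrk an activator of apoptosis and Gbx1 a homeobox factor.

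H3K9me3 cover was higher in KO on 19 of 20 chromosomes, the exception being chromosome 1 with 31.5% in KO and 39.2% in WT. Chromosome 5 stood apart with 98.8% in KO and 49.0% in WT, and 116 of its 183 strong regions were gains and 0 were losses. Without chromosome 5 the cover was 58.0% in KO and 32.6% in WT, with 521 gains (19.5%) and 125 losses. On X it was 63.5% in KO and 33.4% in WT.

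**Figure D2:**
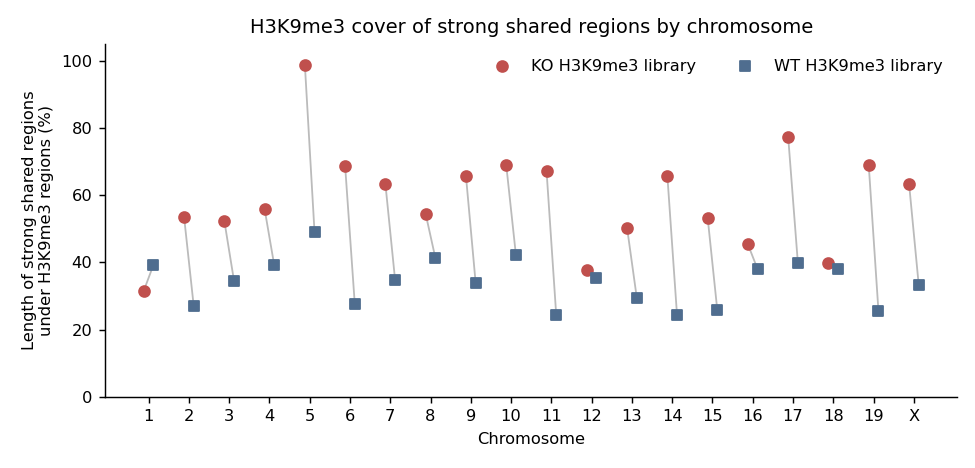
Percent of the length of the strong regions under H3K9me3 regions on each chromosome, in KO (red circles, left) and WT (blue squares, right), 1 library each, with a grey line joining the pair. KO lies above WT on all chromosomes but chromosome 1, and chromosome 5 is at 98.8% in KO.

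Gains were more frequent in strong regions with calls in the H3 libraries, which target H3 and no named modification. H3 regions covered 53.8% of the length of strong regions in KO and 46.0% in WT, against 19.6% in KO and 19.8% in WT for the weaker shared regions. In the 1497 strong regions touched by an H3 region, H3K9me3 covered 71.1% in KO and 36.0% in WT, with 478 gains and 18 losses. In the 1359 others it covered 40.1% in KO and 29.0% in WT, with 159 gains and 107 losses, and 430 regions had more H3K9me3 in KO while 455 had less. Over the 7822 weaker shared regions without H3 the cover was 36.9% in KO and 49.5% in WT. Removing all bases called in either H3 library left 40.04% in KO and 29.7% in WT. The strength of the calls differed too: over the strong regions the median H3K9me3 signal was 7.25 in KO and 2.42 in WT. At a minimum H3K9me3 signal of 3 the cover was 60.5% in KO and 7.43% in WT. The part of H3 calls and of signal scale in the gain was not tested.

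Both marks overlapped in KO. Of the bases of the strong regions, 58.1% were called for H3K27me3 and H3K9me3 in KO, 31.3% for H3K27me3 alone, 2.47% for H3K9me3 alone and 8.06% for neither. Among bases that kept an H3K27me3 call in KO, 64.97% had an H3K9me3 call, and among those that did not, 23.5%. ChIP region lists do not tell whether both marks sit on the same molecules.

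Regions with developmental factors were covered by H3K9me3 more than the other strong regions in both genotypes, but were gained about as often as other regions with gene starts. In the 170 regions with a listed transcription factor it covered 73.9% of the length in KO and 44.2% in WT, with 46 gains (27.1%) and 6 losses. In the 1631 regions with other gene starts it covered 60.6% in KO and 31.6% in WT, with 429 gains (26.3%) and 31 losses (1.90%), and in the 1055 regions with no gene start 52.0% in KO and 33.9% in WT. The factor regions were also longer than those with other gene starts, with medians of 169 kb and 80 kb, and H3 regions covered more of them, 63.8% and 54.8% in KO and 57.0% and 46.7% in WT. The part of length and H3 calls in the higher cover was not tested. The 6 losses held Neurog2, Isl2, Gata3, Foxa1, Msc and Lbx2, named here because they are the losses and so after their values were seen. Neurog2, which drives neuronal fate, lay in a region covered 0% in KO and 92.1% in WT. Gata3, a factor of lymphoid and epithelial lineages, lay in one covered 0% in KO and 55.3% in WT.

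The Hox clusters, which give cells their position along the body axis, differed from each other. The Hoxc region, chr15:102728001-103152000, holds 9 Hoxc genes. H3K9me3 covered 92.2% of it in KO and 0.943% in WT, and H3 regions covered 75.9% in each genotype. The Hoxd region, chr2:74581001-74825000, was covered 82.0% in KO and 55.7% in WT, and the Hoxa region, chr6:52215001-52409000, 92.8% in KO and 74.2% in WT. Both had no H3 call in either genotype. The main Hoxb region, chr11:96086001-96331000, was covered 53.5% in KO and 46.1% in WT, while the separate Hoxb1 region, chr11:96359001-96400000, was covered 0% in KO and 39.0% in WT. H3K9me3 cover was thus higher in KO in 4 of the 5 Hox regions. Of the 31 Hox genes with a start in a strong region, 23 had a listed start in H3K9me3 regions in KO and 10 in WT. Over all genes with a start in a strong region the shares were 53.6% in KO and 23.5% in WT. Any listed start of a gene counted, also one outside the strong region.

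Of the 30 secreted signals with a start in a strong region, 15 lay in gains and 1 in a loss, against 28.1% and 1.28% of all 3677 genes with a start there. Counting any listed start of a gene, 16 had a start inside H3K9me3 regions in KO, near the 53.6% of all such genes. In WT 2 had one, against 23.5% of all. The regions of Wnt3, Wnt7a and Nodal, ligands of axis formation and limb patterning, were each covered 100% in KO and 0% in WT. The region of Ihh, a Hedgehog ligand of cartilage, was covered 62.0% in KO and 6.11% in WT. That of Wnt1 was covered 0% in both genotypes. Zic1 and Zic4 share a region covered 93.2% in KO and 0% in WT, and Fezf2, a factor of cortical neurons, lay in one covered 100% in KO and 0% in WT. The region of Nkx2-5, a heart factor, was covered 100% in both.

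H3.3-Flag cover of the strong regions was low and close to equal. It came to 3.92% of the length in KO and 3.89% in WT, against 2.55% in KO and 2.22% in WT for the weaker shared regions. H3.3-Flag touched 1284 strong regions in KO (45.0%, 43.1% to 46.8%) and 1533 in WT (53.7%, 51.8% to 55.5%). Over all 17661 WT H3K27me3 regions the touched shares were 22.0% in KO and 24.5% in WT, so WT was the higher there too. Among the strong regions, H3.3-Flag was called in both genotypes in 1142, in KO alone in 142, in WT alone in 391 and in neither in 1181. These 4 classes were not counted over all regions. The regions touched in WT alone were longer than those touched in neither, with medians of 71 kb and 28 kb. H3K9me3 cover was similar in the 4 classes, from 53.7% to 65.04% in KO and from 31.7% to 34.7% in WT. Within the strong regions, H3.3-Flag covered 2.55% of the bases with H3K9me3 and 6.02% of those without in KO, and 1.74% and 4.97% in WT.

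H3.3-HA did not follow Flag. It covered 26.2% of the length of strong regions in KO and 0.781% in WT, and was higher in KO on all 20 chromosomes. The KO excess was not particular to strong regions. H3.3-HA covered 14.3% in KO and 0.324% in WT of the weaker shared regions, and 17.6% and 0.527% of all WT H3K27me3 regions. Over the whole library its regions spanned 390 Mb in KO and 73.5 Mb in WT. Most of the KO cover of strong regions rested on calls of low signal, since at a minimum signal of 3 it was 1.72% in KO and 0.765% in WT. H3.3-Flag was higher in KO on 6 of 20 chromosomes. The same histone with another tag thus gave another picture, and the difference between tags was not tested.

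PML lay mostly elsewhere. WT PML regions touched 133 strong regions (4.66%) and covered 5.20% of their length, against 22.5% of the weaker shared regions. KO PML regions touched 8 strong regions and covered 0.0347% of the length. In the 125 strong regions touched by PML in WT alone, H3K9me3 covered 87.9% in KO and 59.6% in WT, with 18 gains and 9 losses. In the 2723 regions with no PML call it covered 58.5% in KO and 31.6% in WT, with 619 gains and 116 losses. Regions without a PML call were 95.3% of all strong regions, so their large number among the gains is near that share.

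H3.3-Flag regions held a start of a larger share of expressed than of silent genes, though most expressed genes had none there. Genes with a start in a strong region were divided by the higher FPKM of the 2 genotypes in the numbered pair. A gene counted when any of its listed starts lay in a region of the library, also a start outside the strong region. Gnas counted for H3.3-Flag in both genotypes, with 0% of its strong region under H3.3-Flag. Of genes under 1 FPKM, 5.85% of 2784 had a start in H3.3-Flag regions in KO and 6.11% of 2783 in WT. For genes of 1 to under 10 FPKM the shares were 29.4% in KO and 34.2% in WT, and for genes of 10 FPKM or more 34.5% in KO and 41.2% in WT. H3K9me3 ran the other way between silent and expressed genes, with 56.6%, 31.6% and 42.9% of genes in the 3 classes in KO and 25.05%, 9.44% and 12.2% in WT. For genes at 10 FPKM or more this was 84 of 196 in KO and 24 of 197 in WT, so KO was the higher in silent and in expressed genes. With the unnumbered pair, 84 of 210 genes at 10 FPKM or more had a listed start inside H3K9me3 regions in KO and 20 of 211 in WT. H3.3-HA matched the rise of H3.3-Flag with FPKM in WT alone. In the 3 classes of the numbered pair its shares were 31.1%, 31.1% and 31.3% in KO and 2.50%, 13.3% and 21.4% in WT.

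**Figure D3:**
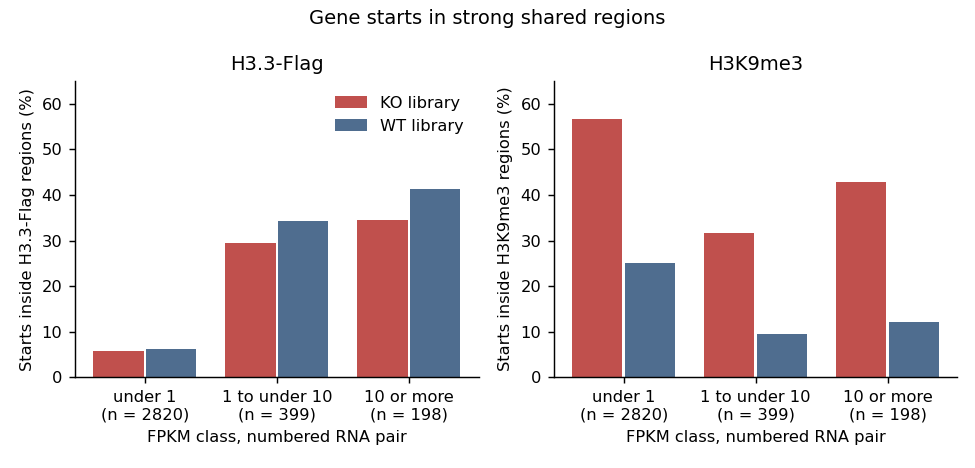
Percent of genes with a start in a strong region that had any listed start, also one outside it, inside H3.3-Flag (left) or H3K9me3 regions (right). Genes are split by FPKM class in the numbered RNA pair, in KO (red, left bar) and WT (blue, right bar), 1 library each. H3.3-Flag bars grow with FPKM, and H3K9me3 bars are tallest for genes under 1 FPKM and are higher in KO in every class.

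Most genes in strong regions were silent. Of the 3677, 3417 were listed in both tables of each pair. In the numbered pair 597 (17.5%) reached 1 FPKM in either genotype, against 62.5% of genes with a start elsewhere, and in the unnumbered pair 727 (21.3%), against 64.9%. Of other homeobox factors, 14 of 89 inside reached it in the numbered pair, against 17 of 32 outside. Among listed basic helix-loop-helix factors inside, 0 of 25 reached 1 FPKM in the numbered tables and 1 of 25 in the unnumbered tables. Of the mesenchymal and limb factors, 10 of 17 inside reached it in the numbered pair, against 17 of 18 outside, and in the unnumbered pair 14 of 17, against 18 of 18. In bulk RNA, fewer cells that express a gene and less RNA per cell cannot be told apart.

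The targeted gene was not a clean check of the RNA tables. Pml was at 10.2 FPKM in KO and 15.0 in WT in the numbered tables, and at 4.22 in KO and 7.62 in WT in the unnumbered tables. Which exons the null allele lacks is not given in the sources used here, so an FPKM over the whole gene does not check the deletion. The pairs also differ from each other. In the numbered pair Xist was at 0.0517 FPKM in KO and 19.5 in WT, and the Y-linked Ddx3y at 7.67 in KO and 0.0384 in WT, so sex and genotype cannot be told apart there. In the unnumbered pair both genes were above 5 FPKM in both genotypes. Of the 15 fibroblast markers, 14 reached 1 FPKM for the numbered tables and 15 for the unnumbered tables, and their sum was 5156 FPKM in KO and 11170 in WT in the numbered tables, and 10700 in KO and 12878 in WT in the unnumbered tables. Thy1 was at 0.100 FPKM in KO and 0.141 in WT in the numbered tables, and at 120 in KO and 210 in WT in the unnumbered tables. Polycomb genes did not differ by much: 1 of 28 at 1 FPKM or more was at least 2-fold higher in KO and 0 lower in the numbered tables, and 0 in either direction in the unnumbered tables.

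Genes in strong regions differed between genotypes more often than all genes in both pairs. Differences are KO minus WT of log2(FPKM + 1), which understates the change of low genes, for genes of at least 1 FPKM in either genotype, and 2-fold means a difference of at least 1. KO exceeded WT by 2-fold or more for 122 of 597 genes (20.4%) in the numbered pair, against 6.38% of all genes, and WT exceeded KO for 130 (21.8%), against 15.7%. In the unnumbered pair 27 of 727 (3.71%) were higher, against 1.49%, and 89 (12.2%) lower, against 3.72%. With a mean of at least 1 FPKM, 95 of 521 genes were higher and 117 lower in the numbered pair. Over all genes the counts there were 600 and 1646 of 10399. For the unnumbered pair they were 26 and 78 of 661, against 161 and 374 of 11044 over all genes. Both shares thus stayed above those of all genes in each pair. The median difference was 0.03 in the numbered pair (0.06 over all genes) and -0.13 in the unnumbered pair (0.01 over all genes).

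Genes in regions that gained H3K9me3 differed in both directions. More of them were lower than higher in KO, as was so over all genes. Over all genes 6.38% were higher and 15.7% lower in the numbered pair, and 1.49% and 3.72% in the unnumbered pair. Of 124 expressed genes in gained regions, 23 were 2-fold higher in KO and 34 lower in the numbered pair (18.5% and 27.4%), and in the unnumbered pair 8 and 17 of 145 (5.52% and 11.7%). Of the genes in regions that changed by less, 97 and 94 of 464 were higher and lower in the numbered pair (20.9% and 20.3%), and 18 and 70 of 568 in the unnumbered pair (3.17% and 12.3%). The median difference of genes in gained regions was -0.20 in the numbered and -0.13 in the unnumbered tables, and that of genes in regions that changed by less 0.11 and -0.13. Genes in lost regions were few, with 2 higher and 2 lower of 9 in the numbered tables and 1 and 2 of 14 in the unnumbered tables.

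Hox genes differed in both directions in the numbered pair. Of 31 with a start inside a strong region, 16 reached 1 FPKM, of which 7 were at least 2-fold higher in KO and 1 lower. Hoxc10 was at 41.3 FPKM in KO and 0.323 in WT, a difference of 5.00. Hoxa10 was at 20.2 in KO and 0.140 in WT (4.22). Hoxb9 was at 26.7 in KO and 0.574 in WT (4.14). These 3 genes were high in the KO table and under 1 FPKM in the WT table, while the more posterior Hoxa11, Hoxa13, Hoxb13, Hoxc11, Hoxc12 and Hoxc13 were under 1 FPKM in both. Hoxc9 was at 13.2 in KO and 0.0737 in WT (3.72), and its region is the one with the large gain of H3K9me3. Hoxa7 was lower, at 2.81 in KO and 11.6 in WT (-1.73). Outside the strong regions, Hoxa2 (-1.29), Hoxa3 (-2.62), Hoxa4 (-1.54) and Hoxa5 (-1.96) were lower as well. In the unnumbered pair 24 Hox genes inside reached 1 FPKM and 0 differed by 2-fold. There Hoxc10 was at 0.887 in KO and 1.44 in WT (-0.37), and Hoxa10 at 21.1 in KO and 12.8 in WT (0.68). Hoxd13, the most posterior gene of its cluster, was at 31.0 in KO and 20.9 in WT in the unnumbered pair, and was listed at 0 in both genotypes in the numbered pair. The pairs thus differed in which Hox genes were on.

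Other developmental factors differed in both directions in the numbered pair. Of 14 other homeobox factors inside at 1 FPKM or more, 8 were higher and 5 lower. Pitx1, a hindlimb factor, was at 7.33 FPKM in KO and 0.0553 in WT (2.98). Gsc, a factor of the embryonic organizer and of craniofacial mesenchyme, was at 0.220 in KO and 51.4 in WT (-5.42). Limb and positional factors thus appeared on both sides. Tbx5, a forelimb factor, was at 0.00223 in KO and 1.71 in WT (-1.44), and Foxf1, a mesenchymal forkhead factor, at 1.40 in KO and 7.41 in WT (-1.81). In the unnumbered pair 1 of 14 homeobox factors was higher and 1 lower, and Pitx1, Gsc, Tbx5 and Foxf1 differed there by 0.18, 0.38, 0.20 and 0.15.

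The other large differences of the numbered pair included imprinted growth genes. Dlk1, an imprinted Notch ligand homologue, was at 119 FPKM in KO and 1.82 in WT (5.42). Igf2, an imprinted fetal growth factor, was at 35.1 in KO and 0.183 in WT (4.93), but at 372 in KO and 390 in WT in the unnumbered pair (-0.07). H3.3-Flag covered none of the Dlk1 region in either genotype, and 0% in KO and 1.31% in WT of the Igf2 region. Cck, a peptide hormone, Pcp4l1, and Usp18, an interferon-induced protease, were higher by 3.74 to 3.77. Lower in KO were Pth1r, the parathyroid hormone receptor, at 0.608 in KO and 52.1 in WT (-5.05), Limch1 (-4.55), Nkain4 (-4.40), Tmem141 (-3.81) and Prxl2b (-3.79). Ptgis, prostacyclin synthase, was at 37.5 in KO and 680 in WT (-4.14).

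Few genes differed in the same direction in both pairs. Of 511 genes at 1 FPKM or more in both pairs, 14 were 2-fold lower in both (0.758% over all genes) and 4 higher in both (0.24% over all genes). Opposite 2-fold differences were at least as frequent, with 16 of the 511 higher in the numbered and lower in the unnumbered pair, and 6 the reverse. Clec11a was at 0.346 FPKM in KO and 22.3 in WT in the numbered pair (-4.11), and at 2.67 in KO and 39.4 in WT in the unnumbered pair (-3.46). Nnmt, an enzyme that methylates nicotinamide, was at 2.05 in KO and 112 in WT (-5.21), and at 1.86 in KO and 21.7 in WT (-2.98). Both lay in regions with more H3K9me3 in KO, 95.2% in KO and 27.1% in WT for Clec11a and 93.6% in KO and 48.0% in WT for Nnmt. Adamts2, which trims procollagen, differed by -3.90 and -1.34. Igfbp3, a carrier of insulin-like growth factors, differed by -2.03 and -1.12, and lay in a region covered 79.5% in KO and 0% in WT. No listed start of Igfbp3 lay in H3K9me3 regions in either genotype. The others lower in both were Cd72, Clu, Coro1a, Cpz, E030030I06Rik, Fxyd1, Gfra4, Gm13889, Tril and Trnp1. Of these, Cd72 and Coro1a are genes of blood cells. Not all genes lower in both lay in regions with more H3K9me3 in KO. Cover was 0% in both genotypes for Cd72 and Fxyd1, and 0% in KO and 6.25% in WT for Trnp1. For Gm13889 it was 53.7% in KO and 56.1% in WT. Cover was higher in KO for Adamts2, Clu, Coro1a, Cpz, E030030I06Rik, Gfra4 and Tril. The 4 higher in both were Il11, a cytokine of stroma (2.70 and 1.17), Msx2, a homeobox factor of limb and skull (2.12 and 1.26), Pcdh1 (2.14 and 1.34) and Chn1 (1.07 and 1.29). Chn1, a regulator of axon guidance, lay in a region covered 100% by H3K9me3 in KO and 14.5% in WT. The region of Il11 was covered 0% in both genotypes. That of Msx2 was covered 48.3% in KO and 44.8% in WT, and that of Pcdh1 17.6% in KO and 26.5% in WT.

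Macrophage genes were among those most strongly lower in KO in the unnumbered pair. Tyrobp, an adaptor of myeloid receptors, was listed at 0 FPKM in KO and was at 18.1 in WT. C1qb was at 0.235 in KO and 15.2 in WT (-3.72). C1qc was at 0.385 in KO and 16.8 in WT (-3.69). Lyz2 was at 8.30 in KO and 90.2 in WT (-3.29), C1qa at 0.974 in KO and 17.1 in WT (-3.20), Cd52 differed by -3.59 and Fcrls by -3.09. All 5 macrophage markers with a start in a strong region were lower in KO. The whole marker list moved with them: 11 of 12 measured macrophage markers were at least 2-fold lower, and their sum was 13.1 FPKM in KO and 195 in WT. In the numbered pair the sum was 4.02 in KO and 2.93 in WT, and Tyrobp, C1qa, C1qb and C1qc were listed at 0 in both genotypes. The part of macrophages in the difference was not tested. Pdgfra was lower in that pair, at 2.37 in KO and 23.3 in WT (-2.85), and higher in the numbered pair, at 20.8 in KO and 4.97 in WT (1.87).

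Higher in KO in the unnumbered pair were Slco4a1, an organic anion transporter (2.69), Mgll, which breaks down monoacylglycerols (2.40), Klhl30 (2.00), Acta1, skeletal muscle actin (1.97), Pcolce2, an enhancer of procollagen processing (1.89), H60b (1.86), Coch (1.79), Rbp4, the retinol carrier (1.74), Vstm2b (1.69) and Bok (1.59). Acta1 was at 43.8 FPKM in KO and 10.4 in WT. Of these 10, Coch lay in a region that lost H3K9me3, covered 9.35% in KO and 62.6% in WT. Pcolce2 and H60b lay in regions that gained it, covered 55.7% in KO and 0% in WT for Pcolce2 and 100% in KO and 50% in WT for H60b. Cdkn1c, the cell cycle inhibitor inside, was at 7.79 in KO and 36.0 in WT in that pair (-2.07), and at 0.267 in KO and 0.171 in WT in the numbered pair (0.11).

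A few strong regions held highly expressed genes. The 10 of highest mean FPKM were Rps4x, Rpl10, Bgn, Flna and Ssr4 on X, and Gnas, Mrfap1, Igf2, Rabac1 and Grb10 on autosomes. Gnas, Igf2 and Grb10 are imprinted, and genes on X are silenced on 1 chromosome in female cells. Rps4x was at 1227 FPKM in KO and 4620.05 in WT in the numbered pair (-1.91), and at 1230.3 in KO and 1466 in WT in the unnumbered pair (-0.25). Of 92 expressed genes on X in strong regions, 8 were higher and 8 lower in the numbered pair (median 0.20), and of 99 in the unnumbered pair 0 were higher and 2 lower (median 0.03). On chromosomes 1 to 19, 114 of 505 were higher and 122 lower in the numbered tables, and 27 and 87 of 628 in the unnumbered tables, so the counts did not rest on X.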

How the data were processed

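ChIP regions are the authors' deposited lists, 1 per target and genotype, each row giving a region with a signal, or a score in the H3 and PML lists and in a further column, made by the authors on a scale not stated. The region caller and the scale between libraries are not given in the sources used here. Signal times the number of 1 kb bins was whole (within 0.02) for 99.6% of KO and 99.8% of WT H3K27me3 regions on chromosomes 1 to 9, and for 7.14% of KO and 6.19% of WT regions on chromosomes 10 to 19, so signal is not the same quantity on all chromosomes. Per the submitters' processing notes, the tools were Cuffdiff 2.2.1, Cufflinks 2.2.1, Bowtie 1.0.0 and TopHat2 2.0.8b, and the build was mm10. RNA values are deposited FPKM, and each genotype's numbered samples share 1 pooled table made by the authors. Read depth is unknown.

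Overlaps, covered lengths and Wilson 95% intervals were computed in Python 3.11.15 (pandas 2.3.3, numpy 2.4.6, scipy 1.17.1), and checked on simulated data (21 of 21 runs recovered). RNA differences are log2(FPKM + 1), KO minus WT, for genes of at least 1 FPKM in either genotype. Rows naming several genes and repeated names were left out. The design had foreseen a test for FPKM columns, which single tables do not allow. Members and gene lists were chosen with earlier results of these data known. Genes named were up to 6 of each list, by the signal of their region, all of any list of 16 or fewer, the whole Hox list, the 10 with the largest difference in each direction and pair, those 2-fold different in the same direction in both pairs, and the 10 of highest mean FPKM. Regions named were the 10 of highest signal, the 10 longest, and the 5 with the largest difference in H3K9me3 each way. Ties in that difference were broken by WT H3K27me3 signal. Alternatives tried were other signal, coverage and FPKM minimums, chromosome subsets, pseudocounts and removal of H3 bases. Some genes that meet the rule for named genes are not reported here.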

Additional observations from a re-analysis of the deposited data

Results flagged for a closer look

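For 7 of the named genes with a start in a strong region, the KO minus WT difference in log2(FPKM + 1) had opposite signs in the numbered and unnumbered pairs, each at least 2-fold. The contrast between pairs was not tested. With the numbered pair given before the unnumbered, Dlk1 differed by 5.42 and -1.99 (gap 7.41). Usp18 differed by 3.74 and -1.23 (gap 4.97), and Pdgfra by 1.87 and -2.85 (gap 4.72). The other 4 were lower in KO in the numbered pair and higher in the unnumbered pair. Mgll differed by -3.24 and 2.40 (gap -5.64), Acta1 by -3.23 and 1.97 (gap -5.20), Bok by -1.71 and 1.59 (gap -3.30), and Pcolce2 by -1.12 and 1.89 (gap -3.02). Of the 511 genes with a start in a strong region at 1 FPKM or more in both pairs, these 7 included, 16 were 2-fold higher in the numbered and lower in the unnumbered pair, and 6 the reverse. Opposite differences were not counted over all genes.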

How the results depend on the processing

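H3K9me3 cover stayed higher in KO under every alternative run. H3.3-Flag cover, near equal, was lower in KO at a WT signal of 30 (3.65% in KO, 3.98% in WT), at an H3.3 signal of 3, on chromosomes 1 to 9 and X, and without chromosome 5 or X. The numbered RNA median of 0.03 turned to -0.06 at a WT signal of 30 and -0.03 after centring on all genes. The gap was 26.99 points. At a minimum WT signal of 15 it was 24.1, with WT cover 35.4%, 199 losses and KO HA cover 24.1%. At 30, 1562 regions with 2205 gene starts had 64.2% in KO and 31.3% in WT, a gap of 32.9, with 417 gains, 54 losses and KO HA cover 31.4%. RNA counts there were 68 higher and 73 lower in the numbered pair, and 14 and 53 (median -0.21) in the unnumbered pair. Chromosomes 10 to 19 held 1275 regions and 1535 starts, with WT cover 30.8%, 293 gains, 55 losses and KO HA cover 36.6%. Chromosomes 1 to 9 and X held 1581 and 2142, with 35.6%, 344, 70 and 19.02%. At an H3K9me3 signal of at least 1, WT cover was 20.2% and the gap 40.4. At 3 they were 7.43% and 53.1, with 1115 gains and 53 losses. A covered-share difference of 0.25 gave 970 gains and 297 losses. Without H3 bases, cover was 40.04% in KO and 29.7% in WT, a gap of 10.4, with 190 gains and 121 losses among 1530 regions. KO HA cover was 10.0% at an H3.3 signal of at least 1 and 1.72% at 3. Chosen after seeing the data, leaving out chromosome 5 gave 58.0% in KO, and the 300 Mb of highest H3K9me3 signal gave 23.6% in KO and 7.34% in WT, a gap of 16.3, with 418 gains. At a minimum of 5 FPKM, 46 genes were higher in the numbered pair (median -0.24), and 15 higher and 53 lower in the unnumbered pair. There a pseudocount of 0.1 gave 54 and 146, and no FPKM minimum a median of 0.0. The cause of these shifts was not tested. No paired analysis was possible because the authors pooled the numbered samples into 1 table per genotype and ChIP has 1 library each. Depth is unknown, so no limit of detection can be given.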

Other observations

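Summed markers of other cell types differed between genotypes, with 1 or 2 genes making up most of several sums. Muscle markers summed to 76.6 FPKM in KO and 275 in WT in the numbered pair, and to 50.2 in KO and 37.5 in WT in the unnumbered pair, and Tnnt2 was at 12.6 in KO and 199 in WT in the numbered pair. Epithelial markers summed to 11.1 FPKM in KO and 2.01 in WT in the numbered pair, and to 6.34 in KO and 3.04 in WT in the unnumbered pair. Endothelial markers summed to 3.25 in KO and 18.7 in WT, and to 5.43 in KO and 9.44 in WT. Neuronal markers summed to 20.6 in KO and 26.8 in WT, and to 54.7 in KO and 28.7 in WT. Krt19 made up 9.53 FPKM of the epithelial sum in KO in the numbered pair, and Egfl7 17.1 FPKM of the endothelial sum in WT. Few of these markers reached 1 FPKM in either genotype. In the numbered pair 1 of 4 such muscle markers was at least 2-fold higher in KO and 3 were lower. There 2 of 2 endothelial markers were lower, and 1 of 2 epithelial and 1 of 3 neuronal markers were higher. In the unnumbered pair 1 of 3 muscle markers was higher and 2 were lower. There 1 of 2 epithelial and 2 of 3 neuronal markers were higher, and 0 of 2 endothelial markers differed.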
